A study of Mus musculus with 6 samples.

Results

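The small heat shock protein genes of skeletal muscle were examined in total RNA-seq libraries of mouse quadriceps. The 7 genes Hspb1, Hspb2, Hspb3, Hspb6, Hspb7, Hspb8 and Cryab were chosen by name as a family, with earlier results of these data known, and were matched by GENCODE symbol to the gene identifiers of the tables, which hold 53947 genes. All 7 were found, and all 7 passed the filter on low counts. The libraries came from 3 WT samples and 3 HSALR samples of mice aged 12 weeks. In HSALR mice a transgene of human skeletal actin bears a CTG expansion of about 220 repeats, and the mice are used as a model of myotonic dystrophy type 1, in which the expanded RNA binds MBNL splicing factors. The regulatory region of the actin gene drives the transgene in muscle fibres, so the model places the expanded RNA in fibres and not in the other cells of the tissue. The labels give the WT samples no further genotype, name no strain, and do not say that each sample came from a separate animal. The p-values below therefore measure the spread between these samples, which may be technical in part.

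Small heat shock proteins are chaperones that work without ATP. They share an alpha-crystallin domain, assemble into dimers and larger oligomers, and hold unfolding proteins in a state from which the ATP-driven HSP70 system can refold them or pass them to degradation. Striated muscle makes more kinds of them than most tissues, and several gather at the Z-disc, where titin, desmin and filamin are under mechanical strain. Mutations in human CRYAB cause myofibrillar myopathy, and those in HSPB1, HSPB3 and HSPB8 cause inherited motor neuropathies. Some members are induced by heat shock factor 1, and others are kept high by the muscle differentiation programme.

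The promoters of the members are given first, with a search for a short core of the heat shock element. Longer arrays of the element were not searched. RefSeq windows on GRCm38.p6, from 250 bases before to 50 bases after an annotated start, were read for Hspb1, Hspb3, Hspb6, Hspb7 and Hspb8, 5 of the 7 members, with 2 windows for Hspb6. No window was used for Hspb2 and Cryab. The motif searched was the inverted pair GAANNTTC, the core of a heat shock element, which reads the same on both strands. In the lines that follow, read 5′ to 3′ on the strand of the gene, the capitals mark each match.
Hspb1, chr5:135887669-135887918, plus strand: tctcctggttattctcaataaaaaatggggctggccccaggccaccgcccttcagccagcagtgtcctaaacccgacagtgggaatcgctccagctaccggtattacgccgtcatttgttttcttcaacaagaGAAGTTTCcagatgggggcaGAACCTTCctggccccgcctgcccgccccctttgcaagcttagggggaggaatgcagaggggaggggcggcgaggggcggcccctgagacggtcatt
Hspb6, chr7:30553051-30553300, plus strand: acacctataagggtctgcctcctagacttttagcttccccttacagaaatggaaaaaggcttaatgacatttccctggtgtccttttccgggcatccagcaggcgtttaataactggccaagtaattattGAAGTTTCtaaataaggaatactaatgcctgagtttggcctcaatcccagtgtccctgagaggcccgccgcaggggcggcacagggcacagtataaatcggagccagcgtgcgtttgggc
Hspb3, chr13:113663677-113663926, minus strand: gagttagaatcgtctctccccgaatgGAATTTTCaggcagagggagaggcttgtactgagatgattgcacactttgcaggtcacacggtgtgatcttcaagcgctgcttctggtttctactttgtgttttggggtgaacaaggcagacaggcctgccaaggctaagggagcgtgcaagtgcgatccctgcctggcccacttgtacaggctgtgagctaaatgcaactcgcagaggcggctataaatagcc
Hspb8, around the start, chr5:116422845-116422884, minus strand: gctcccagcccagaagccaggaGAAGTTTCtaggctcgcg

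Hspb1 was the only one of the 5 members with 2 matches, GAAGTTTC beginning at -117 and GAACCTTC beginning at -97 from the start, where the first transcribed base is counted as 1. Hspb6 had GAAGTTTC at -120 in 1 of its 2 windows, Hspb3 had GAATTTTC at -224, and Hspb8 had GAAGTTTC at 3, just after the start. The Hspb7 window had no match. Across 32851 RefSeq windows of this length, 7.86% held GAANNTTC, and the share of windows with 2 matches was not counted. The opposite arrangement TTCNNGAA, held by 8.52% of windows, was in no member window. A TATA box written as TATAAA, held by 13.6% of windows, began at -29 in Hspb6 and at -11 in Hspb3. In Hspb3 these letters lay inside a match to the MEF2 motif that began at -12, a motif found in 3.19% of windows. No member window held the CArG motif of serum response factor, which was in 1.63% of windows. The matches are descriptions of sequence, and binding was not measured.

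The genes lie on 5 chromosomes. In GENCODE M39 on GRCm39, Hspb1 (identifier ENSMUSG00000004951.11) spans 135916760 to 135918417 of chromosome 5 on the plus strand, and was the only member (1 of 7) that no other annotated gene overlapped. Hspb8 spans 116546409 to 116561084 of the same chromosome on the minus strand. Hspb3 (ENSMUSG00000051456.5) spans 113799432 to 113800212 of chromosome 13 on the minus strand, Hspb6 spans 30251603 to 30256218 of chromosome 7 on the plus strand, and Hspb7 spans 141148090 to 141152625 of chromosome 4 on the plus strand. Hspb2 and Cryab are neighbours on chromosome 9 that are transcribed away from each other. The main transcript of Cryab begins at 50664187 on the plus strand, 328 bases from the start of Hspb2, which spans 50662378 to 50663858 on the minus strand. Longer Cryab transcripts run back across Hspb2 on the opposite strand. The library kit keeps strand, but no source used here says whether counting used it. The expected counts of both genes were whole within 0.005 in every library, with no fractional division of reads seen between them. Whether each read was given to the right neighbour is uncertain and was not tested.

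The libraries held 11468959 to 15023710 counts, and 3 counts corresponded to 0.2 to 0.262 CPM (counts on a common scale set by TMM library sizes). The abundant non-coding RNAs 7SL and 7SK took 14.1% to 15.5% of counts in WT and 18.8%, 24.0% and 43.9% in HSALR. The library at 43.9%, HSALR replicate 1, stood apart from the others, and the fold changes of the members are also given without it. Markers of skeletal muscle fibres were abundant in every library, with summed levels of 218596 to 253195 CPM in WT and 81353 to 169202 CPM in HSALR. Of these 8 genes edgeR called 0 (3 at an unadjusted p under 0.05), DESeq2 3 and limma-voom 1. Titin (Ttn) gave the largest part of the sum, with 135069 ± 10968 CPM in WT and 55062 ± 24988 CPM in HSALR, while Mb, the myoglobin gene, was higher in every HSALR library than in any WT library (1.48-fold, edgeR adjusted p = 0.0695). Of 8 macrophage markers 4 were called higher in HSALR, against 4.28% of all genes. Their sums were 112 to 125 CPM in WT and 163 to 446 CPM in HSALR. Of 7 fibroblast markers 1 was called higher, against the same share of all genes. Their sums were 1575 to 1795 CPM in WT and 1986 to 6428 CPM in HSALR. The macrophage and fibroblast sums were both highest in HSALR replicate 1. Without that library 5 macrophage and 2 fibroblast markers were called higher, against 5.94% of all genes. The HSALR sums were then 163 to 216 CPM and 1986 to 2861 CPM. None of 7 endothelial, 7 tested smooth muscle or 6 adipocyte markers was called by edgeR, DESeq2 or limma-voom, and 0 had an unadjusted edgeR p under 0.05. Leaving out HSALR replicate 1 gave 1 smooth muscle marker called lower and 1 muscle fibre marker in each direction, against 14.4% of all genes called. No marker of any list was at 0 in all libraries. Endothelial sums were 149.7 to 169.6 CPM in WT and 141 to 217 CPM in HSALR. Those of smooth muscle were 1889 to 1996 CPM and 1289 to 1954 CPM, and those of adipocytes 74.9 to 512 CPM and 223 to 1614 CPM. Des, the desmin gene, which is also among the Z-disc partners below, gave most of the smooth muscle sum. It had 1668 ± 64.1 CPM in WT and 1385 ± 397 CPM in HSALR, so this sum does not follow smooth muscle alone. In bulk tissue, a change in the number of cells of a type and a change in RNA per cell cannot be told apart, and the part of these other cells in the results was not tested.

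Levels of different genes were compared in TPM (transcript abundance), which takes transcript length into account. Cryab, which encodes alphaB-crystallin, a chaperone of desmin and titin, had the highest mean level of the members in WT. Its TPM was 223, 298 and 202 in the WT libraries and 95.95, 256 and 284 in the HSALR libraries, in the order of replicates 1, 2 and 3. Hspb8, which forms a complex with BAG3 and HSP70 that sends damaged filamin to autophagy, had 149, 162 and 137 TPM in WT and 57.8, 215 and 172 TPM in HSALR. Hspb1, known in the mouse as HSP25 and a regulator of actin filaments when phosphorylated, had 121, 128 and 111 TPM in WT and 65.0, 227 and 236 TPM in HSALR. These 3 genes were above the other members in every library. The HSALR replicate 1 values were the lowest for each of them, in a library in which 7SL and 7SK took 83.9% of all TPM against 63.7% to 72.2% in the other 5.

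The lower members were close to each other. Mean TPM in WT was 49.2 ± 5.37 (SD, n = 3) for Hspb2, a partner and activator of the DMPK kinase, 43.6 ± 8.18 for Hspb6, a relaxant of smooth muscle when phosphorylated, 26.3 ± 3.11 for Hspb3, which assembles with Hspb2 into a muscle-restricted complex, and 14.9 ± 7.46 for Hspb7, a filamin C binding chaperone of heart and skeletal muscle. Along the WT order Cryab, Hspb8, Hspb1, Hspb2, Hspb6, Hspb3 and Hspb7, the ranges of neighbours overlapped only between Hspb2 and Hspb6 and between Hspb3 and Hspb7. Hspb2 was above Hspb6 in 2 of 3 WT libraries, and Hspb3 was above Hspb7 in 3 of 3. In HSALR the order of the means was Cryab, Hspb1, Hspb8, Hspb2, Hspb6, Hspb3 and Hspb7, and the ranges of all neighbours overlapped except those of Hspb8 and Hspb2. The orders thus differed in the place of Hspb1 and Hspb8. Within each library the ratio of Hspb1 to Hspb8 in TPM was 0.812, 0.792 and 0.809 in WT and 1.13, 1.06 and 1.38 in HSALR. Hspb8 was thus the higher of the pair in all 3 WT libraries and Hspb1 in all 3 HSALR libraries. The transcripts of these genes differ in length, 903 bases for Hspb1 and 1816 bases for Hspb8, and the trend of counts on length, described below, differed between the groups by 0.25 and 0.04 on the log2 scale at these lengths. Its part in the ratio was not tested.

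The HSALR and WT groups were then compared in CPM, with edgeR's quasi-likelihood test over 13576 genes and Benjamini-Hochberg adjustment over all of them. Hspb1 and Hspb3 were higher in HSALR, and the other 5 members did not pass the test. Thus 2 of 7 members were called, against 11.8% of all genes tested, and both were in the higher direction, against 4.28% of all genes. All 7 members had a positive log2 fold change, as did 52.9% of all genes, and their median was 0.39 against 0.04 over all genes tested. The groups did not overlap in the same 2 members, higher in HSALR, against 17.8% of all genes. DESeq2 and limma-voom called the same 2 members higher, against 8.57% and 3.26% of all genes.

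**Figure D1:**
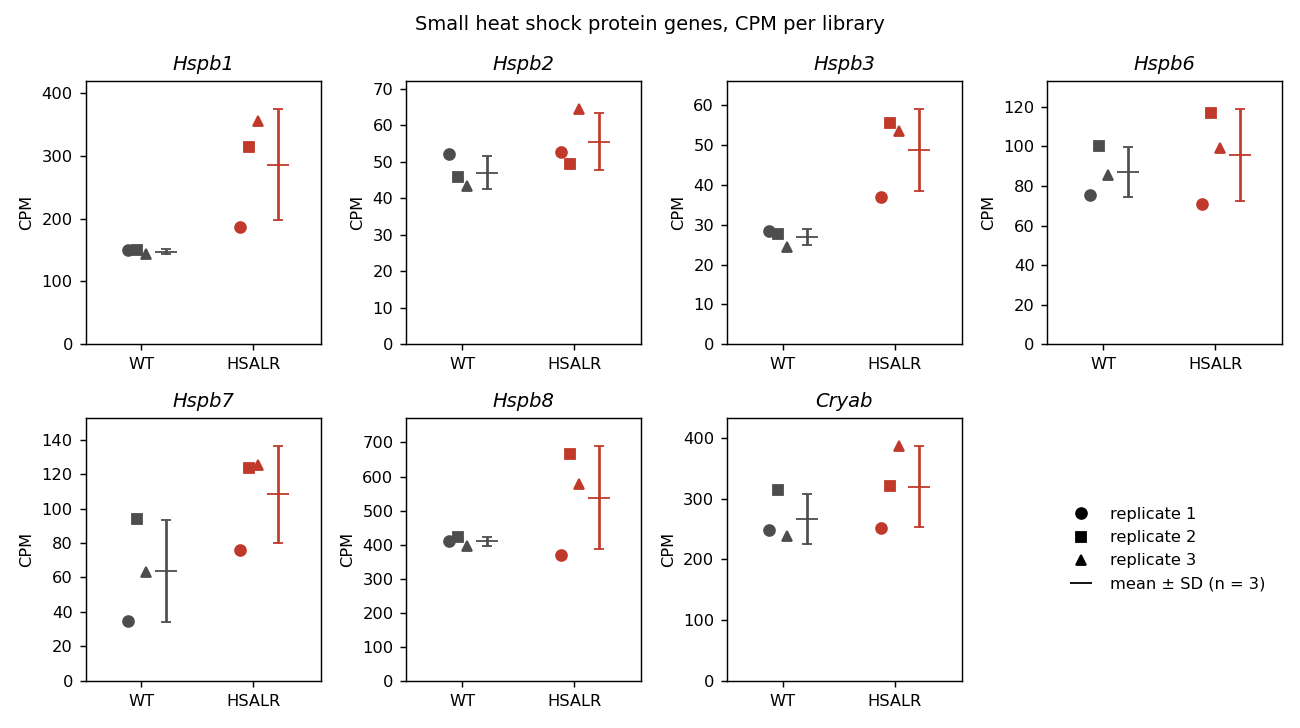
Level of each small heat shock protein gene in CPM in 3 WT and 3 HSALR libraries. Points are libraries, with 1 symbol per replicate number, and bars are the mean ± SD. All HSALR points lie above all WT points for Hspb1 and Hspb3, and the groups overlap for the other 5 genes.

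Hspb1 showed the largest fold change of the members. Its level was 149, 149.7 and 143 CPM in WT and 187, 315 and 357 CPM in HSALR. The WT values were close together, and every HSALR value was above them, with replicate 1 the nearest to WT. The means were 147 ± 3.70 CPM in WT and 286 ± 88.2 CPM in HSALR (SD, n = 3), a log2 fold change of 0.96 ± 0.22 (SE) with an edgeR adjusted p of 0.0294. These values rest on 1928 to 2263 counts per WT library and 1973 to 5319 per HSALR library.

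Hspb3, an intronless small heat shock gene of muscle, moved in the same direction at a lower level. It had 28.5, 27.7 and 24.5 CPM in WT and 36.9, 55.6 and 53.6 CPM in HSALR. The 3 HSALR values were again all above WT, and replicate 1 was again the lowest of them. The means were 26.9 ± 2.13 and 48.7 ± 10.3 CPM (SD, n = 3), and the log2 fold change was 0.86 ± 0.17 (SE) with an edgeR adjusted p of 0.0195, from 330 to 419 counts in WT and 388 to 800 in HSALR.

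Both calls depended on the samples used. Without HSALR replicate 1 the log2 fold change was 1.20 ± 0.12 for Hspb1, with an edgeR adjusted p of 0.000355, and 1.03 ± 0.12 for Hspb3, with 0.00109. Leaving out WT replicate 1, 2 or 3 gave edgeR adjusted p-values of 0.127, 0.12 and 0.121 for Hspb1 and 0.0886, 0.088 and 0.0975 for Hspb3. Without HSALR replicate 3 they were 0.107 and 0.0829. Both genes thus lost the call when any WT library or HSALR replicate 3 was left out, with a positive fold change each time, and kept it without HSALR replicate 1 or 2. Calls over all genes also fell, from 11.8% to 1.19%, 1.55% and 1.51% without WT replicate 1, 2 or 3 and to 1.34% without HSALR replicate 3. They were 14.4% and 23.6% without HSALR replicate 1 or 2. Without HSALR replicate 2 the adjusted p was 0.044 for Hspb1 and 0.0203 for Hspb3.

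Hspb8 did not pass the test with all libraries. Its level was 411, 422 and 395 CPM in WT and 370.04, 666 and 577 CPM in HSALR. Replicates 2 and 3 of HSALR lay above all WT values and replicate 1 lay below them, so that the groups overlapped. The log2 fold change was 0.39 ± 0.21 with an edgeR adjusted p of 0.238. Without HSALR replicate 2 it was 0.20 with an adjusted p of 0.448. Without HSALR replicate 1 it was 0.61 ± 0.12 with an adjusted p of 0.00917, and the 3 members Hspb1, Hspb3 and Hspb8 were called higher, against 5.94% of the 13908 genes tested in that fit. The same 3 were called higher with the share of 7SL and 7SK as a covariate, against 2.67% of all genes, with Hspb8 at 0.83 ± 0.12 and an adjusted p of 0.00355. The share of 7SL and 7SK was above every WT value in each HSALR library and highest in HSALR replicate 1. The covariate fit therefore cannot fully tell this share apart from genotype.

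Hspb7 had the widest spread of the members within WT relative to its mean. It measured 34.5, 93.7 and 63.2 CPM in WT and 75.9, 123 and 125 CPM in HSALR. WT replicate 2 exceeded HSALR replicate 1, and the other HSALR values were above all WT values. The log2 fold change was 0.76 ± 0.36 with an edgeR adjusted p of 0.196. It ran from 0.47 without WT replicate 1 to 1.14 without WT replicate 2 and was 0.97 without HSALR replicate 1, and edgeR called it in none of the fits that left out 1 library. Hspb7, Hspb6, Cryab, Hspb8 and Hspb1 had their highest WT level in CPM in replicate 2. This WT library also had the highest sum of slow fibre markers. That sum was 119, 1642 and 141 CPM in WT and 1176, 311 and 218 CPM in HSALR. In HSALR the library with the highest sum, replicate 1, had the lowest CPM of each of these genes. None of the 8 markers was called by edgeR, DESeq2 or limma-voom, with 0 at an unadjusted edgeR p under 0.05, and their part in the spread of Hspb7 was not tested.

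Cryab, Hspb2 and Hspb6 differed least between the groups. Cryab measured 248, 314 and 238 CPM in WT and 252, 320.03 and 386 CPM in HSALR, with a log2 fold change of 0.26 ± 0.19 and an edgeR adjusted p of 0.377. Hspb2 measured 52.0, 45.9 and 43.3 CPM in WT and 52.6, 49.5 and 64.4 CPM in HSALR, with 0.24 ± 0.15 and an adjusted p of 0.286. In both genes HSALR replicate 3 was the highest library, and the remaining HSALR values lay within or just above the WT range. Hspb6 measured 75.3, 100.3 and 85.6 CPM in WT and 71.0, 117 and 99.2 CPM in HSALR. HSALR replicate 1 was its lowest library and HSALR replicate 2 its highest, and the log2 fold change was 0.14 ± 0.20 with an adjusted p of 0.661. The fold changes of these 3 genes moved with single libraries. Without HSALR replicate 1 they were 0.42 for Cryab (edgeR adjusted p = 0.0916), 0.29 for Hspb2 and 0.32 for Hspb6. Without HSALR replicate 3 they were 0.10 for Cryab and 0.11 for Hspb2, and without HSALR replicate 2 Hspb6 was at -0.04. A p that misses the threshold does not show that these genes were at the same level. The ratio of the divergent neighbours Cryab and Hspb2 in TPM was 4.91 ± 0.940 in WT and 4.98 ± 0.784 in HSALR (SD, n = 3).

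Gene length moved with the fold change across the libraries. Protein coding genes were divided into 8 classes by transcript length, and the median log2 fold change ran from 0.31 in the class of the shortest, of 180 to 1181 bases, to -0.18 in the class of the longest. In the shortest class 11.6% of 1538 genes were called higher. Hspb1 (903 bases), Cryab (833 bases), Hspb3 (781 bases) and Hspb2 (741 bases) belong to that class, while Hspb6 (1347 bases), Hspb8 (1816 bases) and Hspb7 (2769 bases) are longer. Hspb1 and Hspb3 were above the median of their class, and Cryab and Hspb2 were slightly below it.

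**Figure D2:**
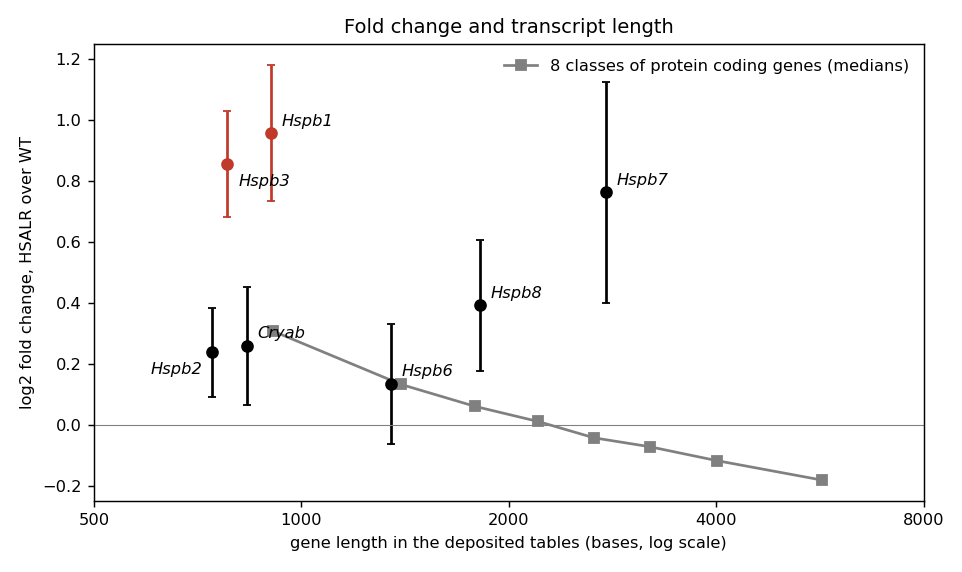
Log2 fold change (HSALR over WT, ± SE) of the 7 genes against gene length in bases on a log scale, with called genes in red. Grey squares are medians of 8 length classes of protein coding genes at the median length of each class. Hspb1, Hspb3, Hspb8 and Hspb7 lie above the line of class medians, and Hspb2, Cryab and Hspb6 lie at or near it.

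When each library's trend of counts on length was removed, 0 of 7 members were called, against 6.93% of all genes. Hspb1 had a log2 fold change of 0.71 ± 0.23 with an edgeR adjusted p of 0.089, and Hspb3 0.56 ± 0.19 with 0.099. At an unadjusted p under 0.05 this edgeR fit still held these 2 members, higher in HSALR, against 14.1% of all genes. Hspb2 and Cryab changed sign, at -0.08 and -0.02, while Hspb8 and Hspb7 had 0.35 and 0.83. With the trend removed and HSALR replicate 1 left out together, Hspb1 (0.95, edgeR adjusted p = 0.00174), Hspb3 (0.75, 0.00756) and Hspb8 (0.55, 0.0213) were called higher, against 3.88% of all genes. In that fit Hspb2 was at -0.01 and Cryab at 0.15, and neither was called.

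**Figure D3:**
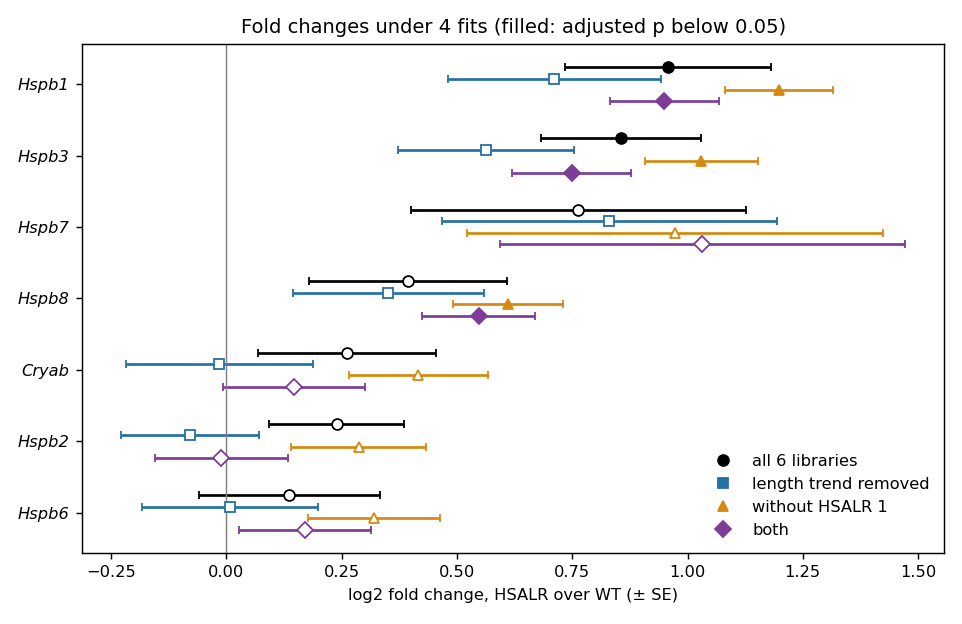
Log2 fold change (HSALR over WT, ± SE) of each gene in 4 edgeR fits, with filled symbols where the adjusted p was below 0.05. Hspb1 and Hspb3 are filled in 3 of the 4 fits and Hspb8 in the 2 fits without HSALR replicate 1, while Cryab and Hspb2 cross 0 between fits.

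The make-up of the small heat shock protein RNA was described by the share of each gene in the summed TPM of the 7. The scaling of the library does not move this ratio, but the trend of counts on length can. On the log2 scale that trend differed between the groups by 0.25 for Hspb1, 0.30 for Hspb3, 0.28 for Cryab and 0.32 for Hspb2. For Hspb6, Hspb8 and Hspb7 it differed by 0.13, 0.04 and -0.06, and its part in the shares was not tested. Hspb1 made up 19.6%, 17.3% and 19.4% in WT and 23.1%, 26.1% and 27.7% in HSALR. Cryab made up 35.9%, 40.2% and 35.4% in WT and 34.0%, 29.5% and 33.3% in HSALR. The groups did not overlap for either gene, with Hspb1 taking the larger share in HSALR and Cryab the smaller. Hspb3, a minor part of the pool, had 4.47%, 3.83% and 3.98% in WT and 5.42%, 5.53% and 4.98% in HSALR, again without overlap. Mean shares changed from 18.7% ± 1.28 to 25.6% ± 2.37 for Hspb1, from 37.2% ± 2.61 to 32.3% ± 2.45 for Cryab and from 4.09% ± 0.335 to 5.31% ± 0.286 for Hspb3 (SD, n = 3). The shares of Hspb2, Hspb6, Hspb7 and Hspb8 overlapped between the groups. Without HSALR replicate 1 the difference in mean share, HSALR minus WT, was 8.18 percentage points for Hspb1, 1.16 for Hspb3 and -5.78 for Cryab, against 6.89, 1.22 and -4.90 with all libraries. These shares are given without a test, since an exact permutation test of 3 against 3 cannot go below 0.1. The shares of one library add to a fixed total and are not independent of each other.

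**Figure D4:**
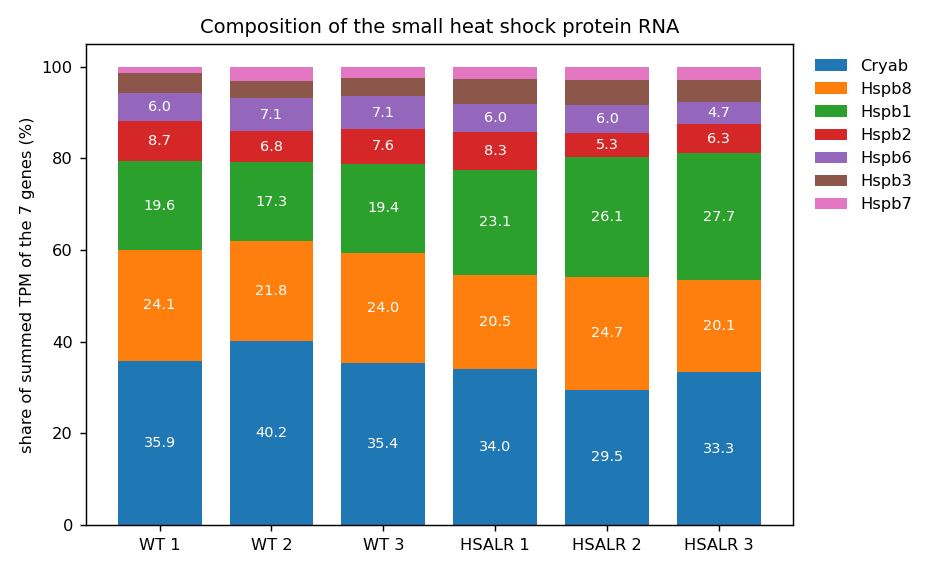
Share of each gene in the summed TPM of the 7 genes in each library, in percent. Stacked bars are libraries. The Hspb1 segment spans 17.3% to 19.6% in WT and 23.1% to 27.7% in HSALR, and the Cryab segment is smaller in all 3 HSALR libraries than in any WT library.

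Among the members, Hspb1 and Hspb3 varied most alike over the 6 libraries, with a Pearson r of 0.978 in log2 CPM, followed by Hspb1 and Hspb8 at 0.879. Hspb2 and Hspb6 were the least alike, at 0.0076. All pairs share the same 6 libraries and the difference between the groups, so these values are descriptions. Of all genes tested, those most like Hspb1 were Ubb-ps (r = 0.997), Rfx2 (0.994) and Pex11g (0.992), and those most like Hspb3 were 2410002F23Rik (0.991), Atcayos (0.990) and Ndufv2 (0.989). For Hspb8 they were Ift122 (0.992), Dnttip1 (0.992) and Shisa4 (0.991), and for Hspb7 Dhx30 (0.987), Ipo9 (0.987) and Pde1b (0.984). For Hspb6 they were Mcat (0.998), Rabggtb (0.993) and Gkap1 (0.988), for Hspb2 Helq (0.990), Klhl17 (0.984) and Lss (0.979), and for Cryab Ntmt1 (0.984), Spata24 (0.982) and 1700086O06Rik (0.981). With 13576 genes and 6 libraries, a high r was found for every member, and no shared function is drawn from it.

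Of the remaining members of the family, Cryaa, Hspb9 and Odf1 were at or near 0 counts and Ift25 was at a low level. Ift25, a small heat shock family gene of cilia, was the only one of 4 matched genes to pass the filter, at 4.01 ± 0.372 CPM in WT and 4.17 ± 0.0582 CPM in HSALR, with an edgeR adjusted p of 0.885. Cryaa, the lens crystallin, had 0 counts in every library, and Hspb9 and Odf1 of the testis had at most 1. In the library with the fewest counts, 0 counts allow a level of up to 0.262 CPM.

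The regulators and partners of the small heat shock proteins were counted in the same fit. Over all genes, calls also leaned lower, with 7.48% called lower and 4.28% higher. None of the 4 genes of heat shock factors and their regulator was called by edgeR, DESeq2 or limma-voom, and 1 had an unadjusted edgeR p under 0.05. Hsf1, the inducer of the heat shock response, had 23.0 ± 3.08 CPM in WT and 16.1 ± 2.20 CPM in HSALR, a log2 fold change of -0.51 ± 0.16 with an edgeR adjusted p of 0.0669. Hsf4, a heat shock factor of the lens, had -0.78 ± 0.36 with 0.17. Hsf1 was lower in each HSALR library than in any WT library, yet it did not pass the threshold.

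Of 9 heat-inducible chaperones 3 were called lower and 1 higher, against 7.48% and 4.28% of all genes, with a median log2 fold change of -0.32 against 0.04 over all genes. Hsph1, the HSP110 nucleotide exchange factor of HSP70, fell from 85.6 ± 10.5 to 39.5 ± 3.67 CPM (-1.11 ± 0.14, edgeR adjusted p = 0.00521). Hsp90aa1, the inducible HSP90, fell from 103 ± 10.7 to 56.2 ± 6.35 CPM (-0.88 ± 0.14, adjusted p = 0.0101), and Chordc1, an HSP90 co-chaperone, fell from 42.1 ± 3.73 to 24.2 ± 3.49 CPM (-0.80 ± 0.15, adjusted p = 0.0141). The direction of these 3 called genes was opposite to that of Hspb1 and Hspb3, while 5 of the 9 were not called. The reason for the contrast was not tested. Hspe1, the mitochondrial co-chaperonin, rose from 45.0 ± 1.75 to 67.1 ± 5.98 CPM (0.58 ± 0.13, adjusted p = 0.0238). Hspe1 has a short transcript of 776 bases and had 0.27 with an adjusted p of 0.165 once the length trend was removed, while the 3 lower genes stayed called there.

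Of 7 BAG3 partners in chaperone-assisted autophagy 2 were called lower, against 7.48% of all genes, and none higher, with a median of -0.43. Dnajb2, an HSP40 that recruits ubiquitinated clients, fell from 38.8 ± 0.779 to 21.7 ± 1.56 CPM (-0.84 ± 0.12, edgeR adjusted p = 0.00663). Synpo2, which links BAG3 to the autophagosome membrane, fell from 367 ± 15.2 to 217 ± 52.5 CPM (-0.76 ± 0.19, adjusted p = 0.0371), and has a transcript of 8209 bases and an adjusted p of 0.144 with the length trend removed. Bag3 itself, the direct partner of Hspb8, had a log2 fold change of -0.34 with an adjusted p of 0.136.

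Of 10 kinases that act on small heat shock proteins 1 was called lower, against 7.48% of all genes. With the length trend removed, and also without HSALR replicate 1, 1 kinase was called higher and 1 lower. Those fits called 6.93% and 14.4% of all genes. Mapk14, the p38 kinase upstream of Hspb1 phosphorylation, fell from 75.7 ± 6.88 to 50.5 ± 1.86 CPM (-0.58 ± 0.13, edgeR adjusted p = 0.0234). Of 7 cytoskeletal and Z-disc partners edgeR called 0 (3 at an unadjusted p under 0.05), DESeq2 3 and limma-voom 1. Ttn, the titin gene, had -1.29 ± 0.37 with an adjusted p of 0.0537, and Ldb3, a Z-disc PDZ gene, had -0.53 ± 0.16 with 0.0595. The transcript of Ttn is the longer by far, at 58631 bases, and with the length trend removed its fold change was -0.81 with an adjusted p of 0.15. Without HSALR replicate 1 the adjusted p was 0.00669 for Ttn (-0.99) and 0.0378 for Ldb3, and 2 of the 7 Z-disc partners were called lower and 2 higher, against 14.4% of all genes called in that fit.

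Across the 6 lists 1 of 38 tested genes was called higher and 6 lower, which is 18.4% called against 11.8% of all genes. The calls of Hsp90aa1, Chordc1, Hspe1, Synpo2 and Mapk14 were lost when any WT library or HSALR replicate 3 was left out, while those of Hsph1 and Dnajb2 were kept. Those fits called 1.19% to 1.55% of all genes, against 11.8% with all libraries.

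**Figure D5:**
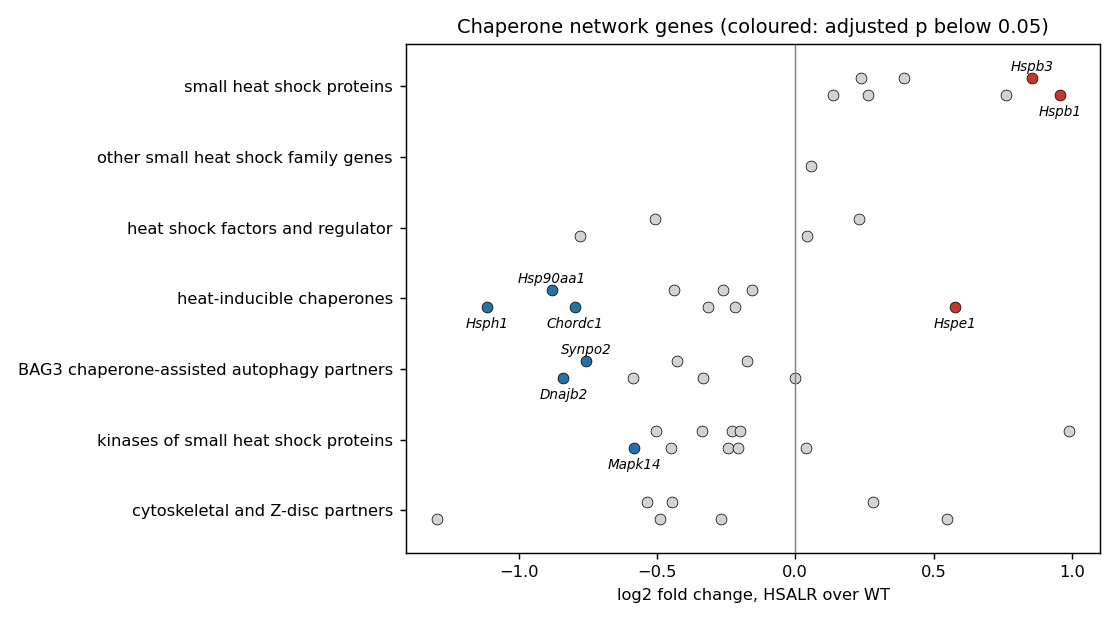
Log2 fold change (HSALR over WT) of the 7 small heat shock protein genes and of 6 lists of family members, regulators and partners, 1 point per gene, with called genes coloured and named. Red points are called higher and blue points called lower. Hspb1, Hspb3 and Hspe1 are the called genes to the right of 0, and 6 named genes lie to the left.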

How the data were processed

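Total RNA of quadriceps, extracted with TRIzol, was made into stranded libraries after removal of ribosomal RNA, from 0.5 µg per sample, per the labels. Samples were grouped by genotype (3 WT, 3 HSALR). The authors deposited expected counts, TPM, FPKM and other columns (length and effective length) for each of 53947 genes, made with RSEM 1.3.1 and Bowtie2 on GRCm39 per the submitters' notes. The annotation release and the strand setting are not given in the sources used here, and the paper's methods describe no test for these libraries. Expected counts, which the authors' software estimates by dividing shared reads between genes, were rounded. Those of all 7 members were whole within 0.005, and FPKM was not used. The TPM values deposited by the authors are scaled to a fixed sum, 7SL and 7SK included.

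Gene names came from GENCODE M39 by identifier for 53400 genes (98.99%). Genes were kept with filterByExpr, scaled by TMM and tested with the robust quasi-likelihood F test of edgeR 4.0.16, run in R 4.3.3 with limma 3.58.1, fitting genotype alone. A call is a Benjamini-Hochberg adjusted p under 0.05 over 13576 genes. Each SE was taken as the size of the log2 fold change over the root of F. Libraries held 11468959 to 15023710 counts, the common dispersion was 0.0535, or 0.231 as a coefficient of variation, and limits from counts cover counting error only. Libraries of a group differed beyond sampling noise in every pair (lowest chi-square over its degrees of freedom 9.68). The length trend was a loess curve (span 0.5) of each library's deviation on log length. The code was tested on simulated counts.

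The members and the gene lists were chosen with earlier results of these data known. The text names all 7 members, up to 4 called genes per list or the 2 with the lowest p where none was called, with Bag3 and 7SL and 7SK beside them, and the 3 genes most like each member. Bag3, Mb and Des were named after their values were seen. Hspb11 had no separate match and was left out. Alternatives included limma-voom, DESeq2 1.42.0, a limma-trend fit of log2(TPM + 0.1), other scalings, filters, length corrections, a covariate for 7SL and 7SK, a replicate block and leaving out each library.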

Additional observations from a re-analysis of the deposited data

How the results depend on the processing

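Over 21 alternatives per gene, Hspb1 kept a positive log2 fold change (0.34 to 1.41) and lost its call in 8, and Hspb3 kept a positive one (0.27 to 1.19) and lost its call in 7. Hspb8 gained a call in 3 and Hspb7 in 1. The number of members called, 2 in the report, was 0 with limma-trend on log2(TPM + 0.1), 0 with the length trend removed, 0 with limma-trend on TPM rescaled without 7SL and 7SK (added after seeing the data), and 0 to 3 on leaving out 1 library each. Both TPM fits kept Hspb1 and Hspb3 positive, and the cause of their lost calls was not tested. With a covariate for 7SL and 7SK, whose share did not overlap between the groups, Hspb1 (1.41), Hspb3 (1.19) and Hspb8 (0.83) were called.

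The 1597 calls over all genes became 2428 with DESeq2, 133 with limma-trend on TPM, 742 with an effective length offset, 941 with the length trend removed, 935 with the covariate, 440 with rescaled TPM, and 166 to 3294 on leaving out 1 library. The 7 calls in the lists of regulators and partners became 13 with DESeq2, 0 with TPM, 1 with rescaled TPM, and 2 to 17 on leaving out 1 library. Higher genes made up 36.4% of calls, 47.9% with DESeq2, 48.2% with upper-quartile factors and 16.5% with TPM.

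Limma-trend on TPM as deposited moved the median of all genes to -0.46, and there Hspb2 (-0.34), Hspb6 (-0.39), Hspb8 (-0.21), Cryab (-0.32) and Ift25 (-0.45) turned negative. Relative to that median these 5 genes were higher. Removing the length trend turned Hspb2 (-0.0794), Cryab (-0.0155) and Ift25 (-0.25) negative, and with HSALR replicate 1 also left out (added after seeing the data) Hspb2 (-0.0114) and Ift25 (-0.22). On leaving out 1 library Hspb6 ran from -0.0385 (without HSALR replicate 2) to 0.32, and Ift25 from -0.0186 (without WT replicate 2) to 0.128. With counts over annotated length, no difference in share of summed TPM moved by more than the spread between replicates. Leaving out 1 library cannot move a difference that far by this measure, so it decides nothing there. The difference, HSALR minus WT, then ran from -2.97 (without HSALR replicate 2) to -0.68 percentage points (without HSALR replicate 3) for Hspb8. For Hspb7 it ran from 0.04 (without WT replicate 1) to 0.93 (without WT replicate 2). For Hspb1 it ran from 5.85 to 8.18.

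Same-numbered libraries had correlations of deviations of 5e-04, -0.0949 and 0.228, and differently numbered ones ran from -0.168 to 0.16. These few values cannot show whether the replicate numbers pair the samples. With the replicate block there were 799 calls over all genes (5.89%) and 4 in the lists, and the members called were Hspb3 (0.84, edgeR adjusted p = 0.0425) and Hspb7 (0.84, 0.045), with Hspb1 at 0.0538. The libraries number 3 per group, which leaves small differences such as those of Hspb2, Hspb6 and Cryab below what the spread between libraries allows to be called.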
